A study of Mus musculus with 15 samples.

Results

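The CC chemokines considered here are Ccl2, Ccl3, Ccl4, Ccl6, Ccl7, Ccl8, Ccl9, Ccl12 and Ccl24, 9 genes chosen by symbol out of 40510 genes in a count table of mouse alveolar macrophages. RNA was sequenced from naive C57BL/6 mice that either lacked a working Cybb gene (knockout, KO) or were wild type (WT). Cybb encodes NOX2, the catalytic subunit of the phagocyte NADPH oxidase, and its loss models chronic granulomatous disease. Macrophages came from lavage fluid of the airways and were sorted as CD45+ Ly6G- SiglecF+ CD11c+ cells, then divided by staining for CD11b, an integrin chain that Itgam encodes. The 5 groups of 3 libraries were CD11b-high KO cells at 12 weeks, CD11b-low KO cells at 12 weeks, CD11b-low WT cells at 12 weeks, CD11b-low KO cells at 4 weeks and CD11b-low WT cells at 4 weeks. No CD11b-high WT group was analysed here. Each library pooled about 50000 cells of 2 to 3 mice and was described as an independent replicate, so p-values measure the spread between these pools.

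CC chemokines are small secreted proteins with a pair of adjacent cysteines that guide leukocytes through G protein-coupled receptors. Ccl2, Ccl7, Ccl8 and Ccl12 are the monocyte chemoattractant proteins, of which Ccl2, Ccl7 and Ccl12 draw monocytes through Ccr2, while mouse Ccl8 also signals through Ccr8. Ccl3 and Ccl4 are macrophage inflammatory proteins, and Ccl3 binds Ccr1. Ccl6 and Ccl9 are rodent Ccr1 ligands, and Ccl24 is an eotaxin that attracts eosinophils through Ccr3. Alveolar macrophages are the resident phagocytes of the airspaces and are a known source of chemokines in the inflamed lung.

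Of the 9 genes, 8 lie on mouse chromosome 11 (GENCODE M21, GRCm38). The monocyte chemoattractant genes form 1 stretch, with Ccl2 at chr11:82035571-82037453, Ccl7 at chr11:82045712-82047525, Ccl12 at chr11:82101845-82103400 and Ccl8 at chr11:82115185-82116799, all on the plus strand. A second stretch holds Ccl9 at chr11:83572919-83578636, Ccl6 at chr11:83587882-83593087 and Ccl3 at chr11:83647844-83649355 on the minus strand, and Ccl4 at chr11:83662584-83664683 on the plus strand. Ccl24 lies apart at chr5:135569937-135573049 on the minus strand. Ccl2 overlaps Gm17268 and Ccl6 overlaps E230016K23Rik, both on the opposite strand with 0 shared exonic bases. Gm17268 had 0 counts in all 15 libraries and E230016K23Rik had 217 to 738 counts, against 286245 or more for Ccl6. The strand setting of the counting is not given in the sources used here.

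Promoters of 5 of the 9 genes were matched by symbol in the RefSeq table (GRCm38.p6). The 250 bases before the start of Ccl12 and Ccl8, neighbours in the first stretch, and of Ccl9 and Ccl6, neighbours of which Ccl9 alone passed between KO and WT cells at 12 weeks, are shown 5′ to 3′ on each gene's own strand, with matches to the searched motifs in capitals. They span chr11:82101595-82101844 (plus), chr11:82114935-82115184 (plus), chr11:83578637-83578886 (minus) and chr11:83593088-83593337 (minus) in the same order.
Ccl12: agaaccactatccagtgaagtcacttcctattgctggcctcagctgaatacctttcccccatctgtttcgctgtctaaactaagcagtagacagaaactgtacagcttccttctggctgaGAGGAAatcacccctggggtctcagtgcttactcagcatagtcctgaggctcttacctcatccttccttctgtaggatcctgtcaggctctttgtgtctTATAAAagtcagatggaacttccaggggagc
Ccl8: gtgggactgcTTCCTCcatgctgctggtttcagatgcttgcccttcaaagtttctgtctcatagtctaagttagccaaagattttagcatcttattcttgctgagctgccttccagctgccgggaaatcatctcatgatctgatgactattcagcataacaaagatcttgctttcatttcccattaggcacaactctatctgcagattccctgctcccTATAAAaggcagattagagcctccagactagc
Ccl9: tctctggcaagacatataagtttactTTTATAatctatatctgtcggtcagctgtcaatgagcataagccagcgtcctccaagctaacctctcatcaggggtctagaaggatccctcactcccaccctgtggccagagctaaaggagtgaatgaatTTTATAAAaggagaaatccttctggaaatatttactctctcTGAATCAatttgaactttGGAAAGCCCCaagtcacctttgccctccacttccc
Ccl6: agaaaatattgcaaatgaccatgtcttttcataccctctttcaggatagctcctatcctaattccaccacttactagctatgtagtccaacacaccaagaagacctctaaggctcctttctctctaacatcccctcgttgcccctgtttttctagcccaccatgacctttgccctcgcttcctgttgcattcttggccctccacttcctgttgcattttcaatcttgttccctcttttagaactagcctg
The motifs searched on both strands were TATAAA (the core promoter box bound by TBP, in 13% of 27025 promoters of this length), GAGGAA (ETS factors, 23.1%), TGANTCA (AP-1, 6.87%), a loose kappaB form with 5 open positions (45.4%) and TTCNNNGAA (STAT factors, 7.18%). Ccl12 and Ccl8 each held 1 forward TATAAA, whose first base lay 31 bases before the start in Ccl12 and 32 bases before it in Ccl8, and 1 GAGGAA match. Ccl9 held 3 TATAAA matches, 2 of them overlapping on opposite strands, 1 TGANTCA match and 1 kappaB match. Ccl6 held no match to the 5 motifs, and Ccl3 held 1 GAGGAA match. In windows of 250 bases before and 50 after the start, Ccl12 and Ccl8 shared 55.7% of aligned bases, Ccl9 and Ccl6 47.1%, and the other 8 pairs of the 5 promoters 44.3 to 50.7%.

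The libraries held 22856331 to 36458893 counts each, with a median of 32415469, and between 15889 and 17973 genes were detected per library. Cybb stood at 129 to 221 CPM (counts scaled to library totals with TMM factors) in the 9 KO libraries and 899 to 2319 CPM in the 6 WT libraries. The labels do not say which part of Cybb was removed. The 10 alveolar macrophage markers, among them Siglecf, Itgax, Marco and Chil3, had counts in every library and summed to 30409 to 67897 CPM. Itgam stood at 30.7 to 88.4 CPM in CD11b-high KO cells, 3.11 to 6.26 CPM in CD11b-low KO cells at 12 weeks and 0.805 to 2.24 CPM in CD11b-low WT cells at 12 weeks. In sorted bulk samples, a change in the share of cells that make a chemokine and a change in RNA per cell cannot be told apart. Levels are CPM as mean ± SD over 3 libraries, fold changes come from edgeR's two-sided quasi-likelihood test over 13284 genes in a fit of all 15 libraries, and a gene passed at a Benjamini-Hochberg adjusted p under 0.05.

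**Figure D1:**
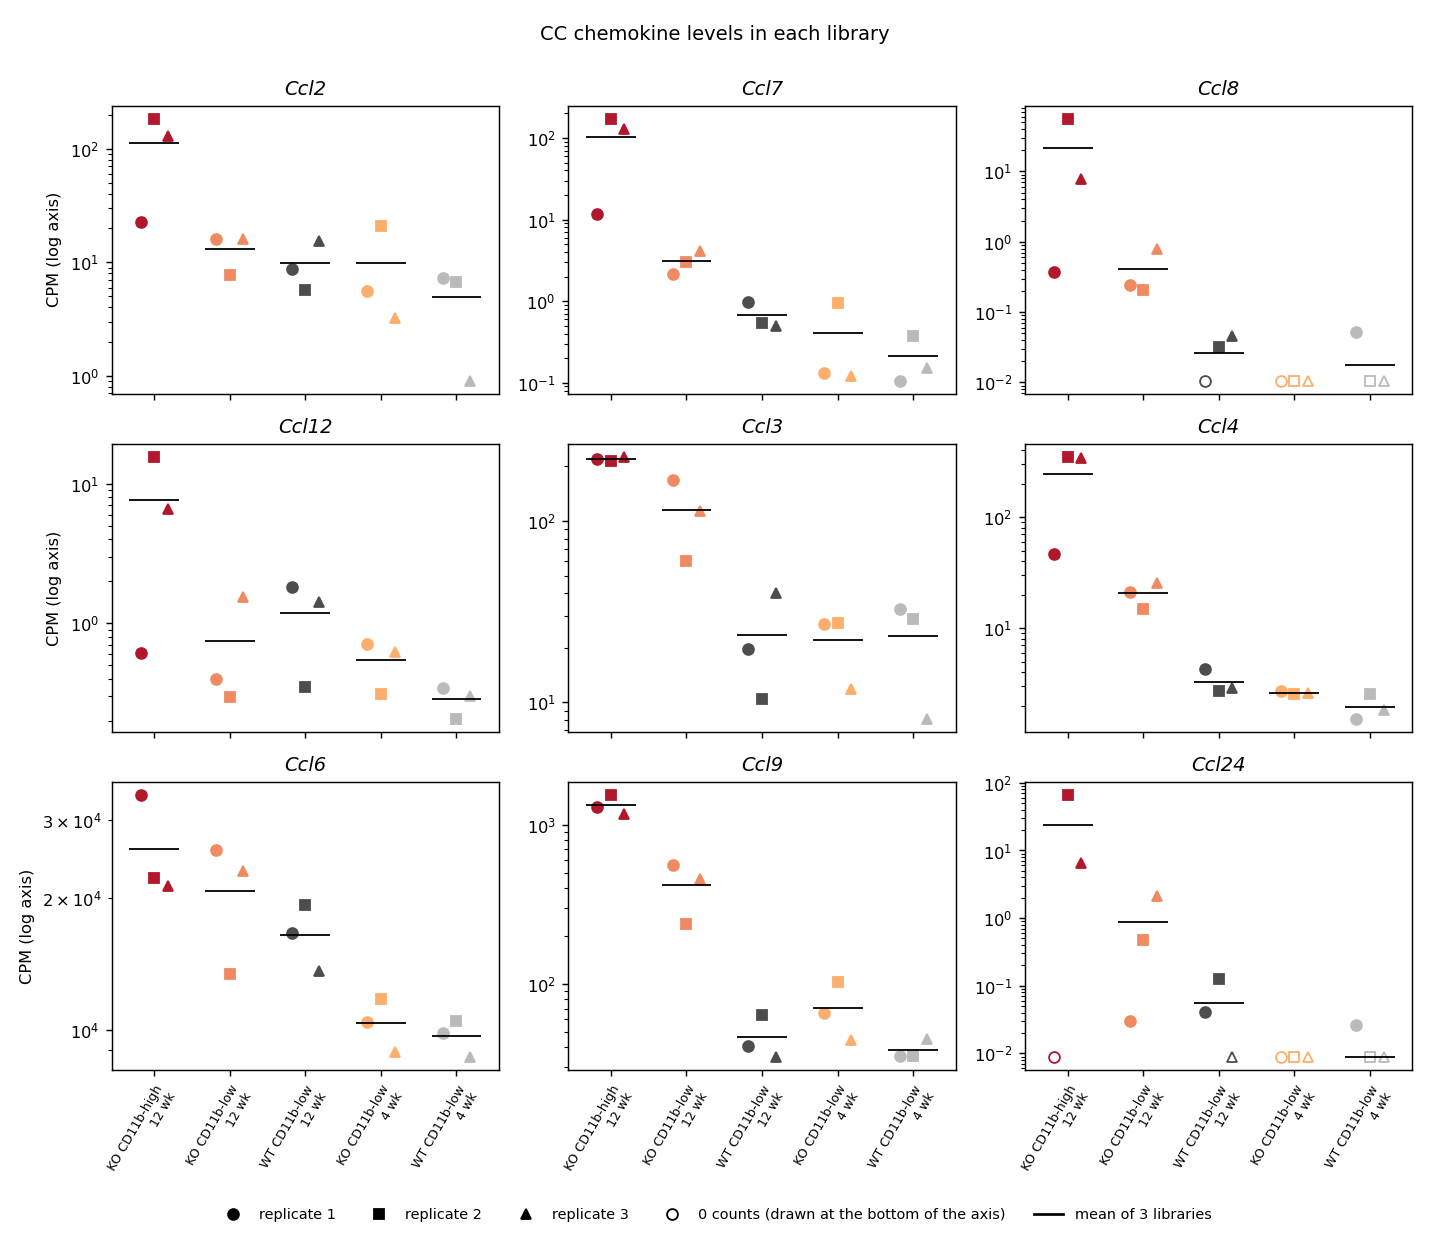
Levels of the 9 CC chemokines in CPM on log axes, with 1 point per library in 5 groups of 3, a line at each group mean and open points for libraries with 0 counts. Each gene has its highest point in CD11b-high KO cells at 12 weeks, and in Ccl2, Ccl4, Ccl7, Ccl8, Ccl12 and Ccl24 replicate 1 of that group lies far below the other two.

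Ccl6 dominated the family in every library. It took 89.6 to 95.6% of the counts of the 9 genes in CD11b-high KO cells, 97.1 to 97.6% in CD11b-low KO cells at 12 weeks, 99.3 to 99.6% in CD11b-low WT cells at 12 weeks, 98.7 to 99.3% in KO cells at 4 weeks and 99.2 to 99.4% in WT cells at 4 weeks. It ranked 4 to 8 by counts among all genes. The other 8 genes together held 0.132 to 0.241% of all counts in CD11b-high KO libraries, 0.0322 to 0.0694% in CD11b-low KO libraries at 12 weeks, 0.00719 to 0.0089% in WT libraries at 12 weeks, 0.00718 to 0.0174% in KO libraries at 4 weeks and 0.00614 to 0.00857% in WT libraries at 4 weeks. The ranges of this summed share did not overlap between the 3 groups at 12 weeks, whereas the ranges at 4 weeks overlapped each other. Ccl9 alone held 0.107 to 0.143% of all counts in CD11b-high KO libraries and 0.0236 to 0.0506% in CD11b-low KO libraries at 12 weeks. Taken singly, Ccl2, Ccl12 and Ccl24 overlapped in CPM between CD11b-low KO and WT cells at 12 weeks. Ccl8, Ccl12 and Ccl24 overlapped between CD11b-high and CD11b-low KO cells.

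**Figure D2:**
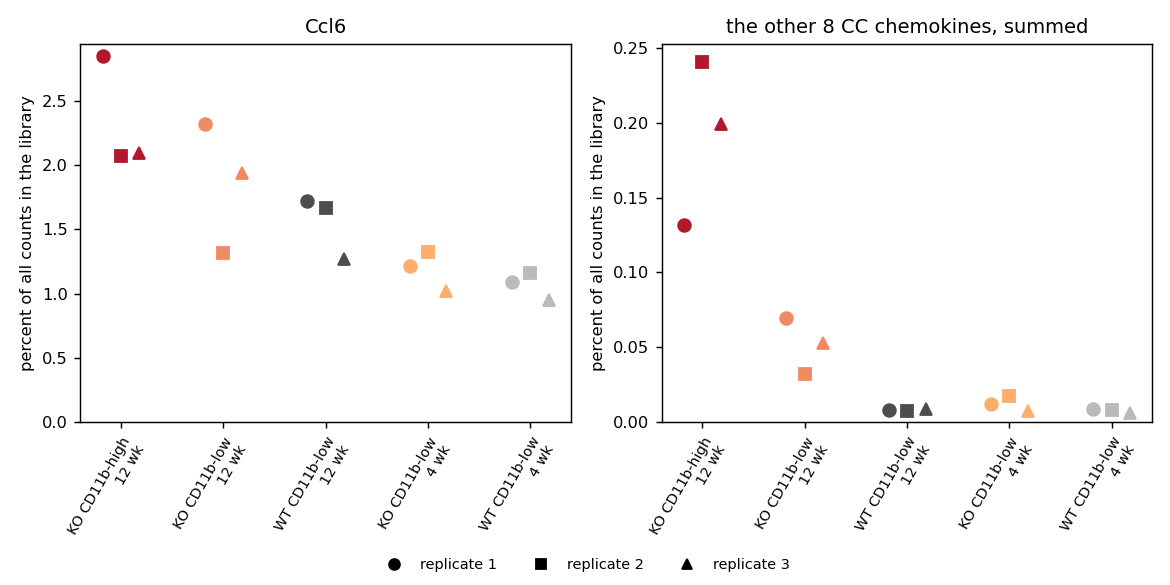
Share of all counts in a library, in percent, taken by Ccl6 (left) and by the other 8 CC chemokines summed (right), with 1 point per library in 5 groups of 3 and axes from 0. The summed share of the other 8 lies between 0.132 and 0.241% in CD11b-high KO cells and at 0.0694% or less in the other groups.

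Per kilobase of exonic length, which allows genes to be compared, the order in CD11b-high KO cells was Ccl6 (14409 ± 4030.2 CPM per kb), Ccl9 (437 ± 59.9), Ccl4 (369 ± 258), Ccl3 (287 ± 6.95), Ccl7 (130.2 ± 104), Ccl2 (98.9 ± 72.1), Ccl8 (41.8 ± 59), Ccl24 (18.5 ± 27.8) and Ccl12 (14.1 ± 14). Each pair of neighbours from Ccl9 downwards differed by less than the larger of their SDs, apart from Ccl3 and Ccl7. In CD11b-low KO cells at 12 weeks the leading genes were Ccl6 (11522 ± 3606 CPM per kb), Ccl3 (149 ± 70.8), Ccl9 (138 ± 54), Ccl4 (31.1 ± 7.96) and Ccl2 (11.6 ± 4.18). In CD11b-low WT cells at 12 weeks they were Ccl6 (9179 ± 1561 CPM per kb), Ccl3 (30.7 ± 19.9), Ccl9 (15.2 ± 4.99), Ccl2 (8.73 ± 4.42) and Ccl4 (5.02 ± 1.32). Ccl4 thus had rank 3 in CD11b-high KO cells, rank 4 in CD11b-low KO cells and rank 5 in WT cells at this age.

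The comparison of KO with WT cells at 12 weeks addressed the effect of NOX2 loss in adult CD11b-low cells. The macrophage inflammatory protein genes and Ccl9 were higher in KO cells. Ccl9 was 9.07-fold, Ccl4 6.2-fold and Ccl3 4.88-fold higher, and no monocyte chemoattractant gene passed the test. In all, 3 of 9 members passed, each of them higher, where 3.1% of all genes passed in either direction (2.6% higher and 0.497% lower). The median log2 fold change was 2.29 over the 9 members and -0.04 over all genes tested.

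Ccl9 stood at 560, 239 and 458 CPM in KO libraries, against 40.5, 63.4 and 34.6 CPM in WT libraries. Every KO library was above every WT library, and the fit gave 3.18 on the log2 scale (SE 0.36, adjusted p = 0.000104). Ccl4 stood at 21.1, 15 and 25.5 CPM in KO libraries, against 4.31, 2.71 and 2.92 CPM in WT libraries. These groups did not overlap either, and the log2 fold change was 2.63 (SE 0.51, adjusted p = 0.00749). Ccl3 stood at 169, 60 and 114 CPM in KO libraries, against 19.8, 10.4 and 40.2 CPM in WT libraries. The gap between the lowest KO and the highest WT library was narrow here, and the log2 fold change of 2.29 (SE 0.54, adjusted p = 0.0288) lost the call without any 1 of 4 libraries, with adjusted p of 0.0736 and 0.0557 without KO replicate 1 or 3, and 0.143 and 0.094 without WT replicate 1 or 2. Without WT replicate 3 the Ccl3 log2 fold change was 2.92. Without WT replicate 2, Ccl4 had an adjusted p of 0.0516.

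Ccl6, the Ccr1 ligand that neighbours Ccl9, stood at 25640, 13358 and 23046 CPM in KO libraries, against 16584, 19223 and 13620 CPM in WT libraries. The groups overlapped, and the log2 fold change was 0.33 (SE 0.28, adjusted p = 0.519). Among the monocyte chemoattractant genes, Ccl7 stood at 2.14, 3.04 and 4.11 CPM in KO libraries, against 0.966, 0.541 and 0.502 CPM in WT libraries. The groups did not overlap, yet the log2 fold change of 2.20 (SE 0.85) had an adjusted p of 0.173. Ccl2 averaged 13.2 ± 4.76 CPM in KO cells and 9.93 ± 5.03 CPM in WT cells (adjusted p = 0.801). Ccl12 averaged 0.743 ± 0.687 CPM in KO cells and 1.19 ± 0.756 CPM in WT cells (adjusted p = 0.678).

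Ccl8 and Ccl24 were close to the detection limit. Ccl8 had 8, 7 and 24 counts in KO libraries, against 0, 1 and 1 count in WT libraries, a pooled ratio of 15.7 in CPM (exact 95% interval 4.07 to 134, counting error only). Its adjusted p was 0.327. Ccl24 had 1, 16 and 64 counts in KO libraries, against 1, 4 and 0 counts in WT libraries, a pooled ratio of 13.1 (5.37 to 41.3), with an adjusted p of 0.398. Without KO replicate 3 the ratios were 8.84 for Ccl8 and 4.01 for Ccl24, and without WT replicate 2 that of Ccl24 was 39.1.

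Markers of other cells moved with this comparison. Of 11 T and NK cell markers, 10 were tested and 5 passed, all higher. They summed to 46.1 to 114 CPM in KO libraries, against 3.06 to 7.13 CPM in WT libraries, led by Cd3e and Cd3g. KO replicate 2 had the highest T and NK cell sum, 114 CPM, and the lowest Ccl3, Ccl4 and Ccl9 of its group. Its eosinophil, neutrophil and erythroid sums were the lowest of the group, at 125, 181 and 68.6 CPM. Its monocyte, B cell, dendritic cell and lung epithelial sums were the highest, at 28.3, 14.5, 19 and 31.2 CPM. Of 6 eosinophil markers, 3 were tested and Ear6 passed, and the sum was 125 to 683 CPM in KO libraries, against 10.7 to 16.7 CPM in WT libraries, with Epx at 0 in all libraries. Of 10 neutrophil markers, 6 were tested and S100a8 passed, with sums of 181 to 256 CPM in KO libraries, against 92.9 to 125 CPM in WT libraries, and Ly6g at 0 throughout. Of 8 monocyte markers, 2 passed, both higher, with sums of 11.3 to 28.3 CPM in KO libraries, against 9.68 to 12.8 CPM in WT libraries. Of 6 B cell markers, Blk passed as higher, with sums of 5.06 to 14.5 CPM in KO libraries, against 0.886 to 1.59 CPM in WT libraries. Of 6 lung epithelial markers, Sftpc passed as lower, with sums of 15.4 to 31.2 CPM in KO libraries, against 65.3 to 115 CPM in WT libraries. The erythroid sum was lower, with 4 of 5 markers passing, at 68.6 to 146 CPM in KO libraries, against 571 to 1308 CPM in WT libraries, and the sum of handling stress genes was 404 to 818 CPM in KO libraries, against 619 to 1643 CPM in WT libraries. The part of these cells in the chemokine levels was not tested.

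At 4 weeks, the same genotype comparison gave no call among the 9 members in edgeR, where 0.0979% of all genes passed (0.0151% higher and 0.0828% lower). The median log2 fold change was 0.42 over the 9 members, 0.88 over the 7 with enough counts for a fold, and -0.01 over all genes. At an unadjusted p under 0.05, 1 member was found, and DESeq2 and limma voom called 0. Ccl9 stood at 65.3, 102 and 44.1 CPM in KO libraries, against 35.0, 35.0 and 44.7 CPM in WT libraries. These groups overlapped, and the log2 fold change was 0.88 (SE 0.33, unadjusted p = 0.0174, adjusted p = 1). Ccl3 averaged 22.0 ± 8.82 CPM in KO cells and 23.2 ± 13.2 CPM in WT cells. Ccl4 averaged 2.64 ± 0.0995 CPM in KO cells and 1.97 ± 0.516 CPM in WT cells. Ccl6 averaged 10349 ± 1410 CPM in KO cells and 9650 ± 920 CPM in WT cells. The monocyte chemoattractant genes were low, with Ccl2 at 9.96 ± 9.71 CPM in KO cells and 4.96 ± 3.52 CPM in WT cells. Ccl8 had 0 counts in all KO libraries and 2, 0 and 0 counts in WT libraries, and Ccl24 had 0 counts in KO libraries and 1, 0 and 0 counts in WT libraries, so no fold is given for either. Handling stress sums were 1056, 1397 and 1271 CPM in KO libraries, against 1948, 1700 and 399 CPM in WT libraries. WT replicate 3 was also lowest for Ccl2 and Ccl3, but not for Ccl4 and Ccl9. Erythroid sums were 45.8 to 151 CPM in KO and 1650 to 7468 CPM in WT libraries, with 5 of 5 markers lower. Their part in the chemokine levels was not tested.

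Whether the genotype difference itself differed between the ages was tested as an interaction, in which 0 of 9 members and 0.248% of all genes passed in edgeR (0.248% higher and 0% lower). The median interaction was 2.21 over the members and -0.02 over all genes. The median over the members counts Ccl8 and Ccl24, which had too few counts at 4 weeks for a fold. Without them the middle value was that of Ccl7, at 1.27. At an unadjusted p under 0.05 there were 3 members, and DESeq2 called 1. Ccl9 came nearest, with a KO over WT log2 fold change larger at 12 than at 4 weeks by 2.30 (SE 0.48, unadjusted p = 0.000144, adjusted p = 0.0531). It passed without CD11b-low KO replicate 2 of 12 weeks (adjusted p = 0.0225), without WT replicate 2 of 12 weeks (0.0325) and without KO replicate 2 of 4 weeks (0.0384), and DESeq2 gave an adjusted p of 0.000962. The interaction was 2.36 for Ccl3 (adjusted p = 0.296) and 2.21 for Ccl4 (adjusted p = 0.306).

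The age comparison within KO cells shared its 12-week libraries with the genotype comparison, so its values stand beside it and are no independent support. Ccl4 was 7.78-fold, Ccl9 5.96-fold, Ccl3 5.19-fold and Ccl6 2-fold higher at 12 than at 4 weeks, and these 4 of 9 members passed, all higher, where 6.89% of all genes passed (4.81% higher and 2.08% lower). The median log2 fold change was 2.57 over the members and -0.02 over all genes. Ccl9 averaged 419 ± 164 CPM at 12 weeks and 70.3 ± 29.1 CPM at 4 weeks (log2 fold change 2.57, SE 0.35, adjusted p = 0.000348). Ccl4 averaged 20.5 ± 5.25 CPM at 12 weeks and 2.64 ± 0.0995 CPM at 4 weeks (log2 fold change 2.96, SE 0.51, adjusted p = 0.00283).

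Ccl3 stood at 27.0, 27.3 and 11.9 CPM in KO libraries of 4 weeks, all below the 12-week ones, and the fit gave 2.38 on the log2 scale (SE 0.54, adjusted p = 0.016). Ccl6 averaged 20681 ± 6473 CPM at 12 weeks and 10349 ± 1410 CPM at 4 weeks (SE of the log2 fold change 0.28, adjusted p = 0.0406). Neither call held without every library. The Ccl3 call was lost without KO replicate 1 of 12 weeks (adjusted p = 0.0699) or any of the 3 KO libraries of 4 weeks (0.0515, 0.0564 and 0.0867), and the Ccl6 call without KO replicate 1 or 3 of 12 weeks (0.157 and 0.138) or any KO library of 4 weeks (0.106 to 0.177). Ccl7, at 3.1 ± 0.989 CPM at 12 weeks and 0.403 ± 0.481 CPM at 4 weeks, had an adjusted p of 0.0553. Ccl8 and Ccl24 had 0 counts in all 4-week KO libraries. With a floor of 3 counts over the group, their pooled 12-week levels were at least 15.5-fold and at least 32.1-fold higher, with adjusted p of 0.149 and 0.197. Their 12-week counts were 8, 7 and 24 for Ccl8 and 1, 16 and 64 for Ccl24, so replicate 3 held most of both. Without KO replicate 3 of 12 weeks these bounds were 8.69-fold and 9.85-fold, and without KO replicate 3 of 4 weeks 9.85-fold and 20.5-fold.

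Of other cells' markers, 4 of 8 monocyte, 2 of 6 tested neutrophil, 1 of 3 tested eosinophil, 2 of 6 B cell and 1 of 6 dendritic cell markers were higher at 12 weeks. T and NK cell sums were 46.1 to 114 CPM at 12 weeks and 1.33 to 2.92 CPM at 4 weeks, with 8 of 10 tested markers higher. Eosinophil sums, mostly Ear6, were 125 to 683 CPM at 12 weeks and 14 to 34.7 CPM at 4 weeks, and handling stress sums were 404 to 818 CPM at 12 weeks and 1056 to 1397 CPM at 4 weeks. Their part in the chemokine levels was not tested.

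In WT cells, 0 of 9 members passed between 12 and 4 weeks in edgeR. Over all genes, 17.2% passed (8.79% higher and 8.39% lower). With 9 members, the count is too small to be compared with this share. The median log2 fold change was 0.77 over the members and -0.03 over all genes. At an unadjusted p under 0.05 there were 2 members, DESeq2 called Ccl6 and Ccl12, and limma voom called 0. Ccl6 stood at 16584, 19223 and 13620 CPM at 12 weeks, against 9825, 10470 and 8655 CPM at 4 weeks. The ages did not overlap, and the log2 fold change was 0.77 (SE 0.28, adjusted p = 0.0643). Ccl12 stood at 1.81, 0.350 and 1.41 CPM at 12 weeks, against 0.344, 0.206 and 0.302 CPM at 4 weeks, also without overlap (adjusted p = 0.136). Ccl9 averaged 46.2 ± 15.2 CPM at 12 weeks and 38.2 ± 5.59 CPM at 4 weeks (adjusted p = 0.621), and Ccl3 23.5 ± 15.2 CPM at 12 weeks and 23.2 ± 13.2 CPM at 4 weeks (adjusted p = 0.992). Handling stress sums were 694, 619 and 1643 CPM at 12 weeks, against 1948, 1700 and 399 CPM at 4 weeks. Replicate 3 of 12 weeks was also highest for Ccl2 and Ccl3, but not for Ccl4 and Ccl9. Of 5 erythroid markers, 5 were lower at 12 weeks. Their part in the chemokine levels was not tested.

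How the CD11b-high macrophages of adult KO mice differ from CD11b-low ones was addressed within the KO. Ccl7 was 33.7-fold, Ccl4 11.9-fold and Ccl9 3.18-fold higher in CD11b-high cells. These 3 of 9 members passed, where 0.693% of all genes passed in either direction (0.572% higher and 0.12% lower). All 9 members had fold changes above 0, with a median log2 fold change of 3.35 over the members and 0.01 over all genes. These 3 calls rested on the spread shared over all 15 libraries. With only the 6 libraries compared in the fit, adjusted p was 0.0985 for Ccl7, 0.0985 for Ccl4 and 0.0821 for Ccl9, and 0 members passed.

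Ccl7 stood at 11.7, 172 and 129 CPM in CD11b-high libraries, against 2.14, 3.04 and 4.11 CPM in CD11b-low libraries. All CD11b-high libraries were above all CD11b-low ones, but replicate 1 was far below the other two, and the log2 fold change was 5.07 (SE 0.85, adjusted p = 0.0149). Ccl4 showed the same split, with 46.9, 346 and 338 CPM in CD11b-high libraries, against 21.1, 15 and 25.5 CPM in CD11b-low libraries (log2 fold change 3.57, SE 0.51, adjusted p = 0.00527). Ccl9 was even among CD11b-high libraries, at 1288, 1531 and 1174 CPM, against 560, 239 and 458 CPM in CD11b-low libraries (log2 fold change 1.67, SE 0.34, adjusted p = 0.0304). Ccl3 was even too, at 221, 214 and 225 CPM in CD11b-high libraries, against 169, 60 and 114 CPM in CD11b-low libraries. The groups did not overlap for Ccl3, but its log2 fold change of 0.94 had an adjusted p of 0.602.

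The other monocyte chemoattractant genes followed Ccl7 in pattern without passing. Ccl2 stood at 22.8, 184 and 131 CPM in CD11b-high libraries, against 15.9, 7.66 and 16.0 CPM in CD11b-low libraries (log2 fold change 3.10, SE 0.88, adjusted p = 0.159). Ccl12 stood at 0.611, 15.5 and 6.63 CPM in CD11b-high libraries, against 0.397, 0.298 and 1.53 CPM in CD11b-low libraries (adjusted p = 0.0974). Replicate 1 of the CD11b-high group lay at or near the CD11b-low level for both genes. Ccl8 had 9, 1192 and 251 counts in CD11b-high libraries, which is 0.367, 55.9 and 7.78 CPM, against 0.244, 0.209 and 0.783 CPM in CD11b-low libraries (adjusted p = 0.0949). Ccl24, the eotaxin gene, had 0, 1392 and 208 counts in CD11b-high libraries, which is 0, 65.2 and 6.45 CPM, against 0.0305, 0.477 and 2.09 CPM in CD11b-low libraries (adjusted p = 0.343). Ccl6 stood at 34201, 22154 and 21239 CPM in CD11b-high libraries, against 25640, 13358 and 23046 CPM in CD11b-low libraries, with an adjusted p of 0.795, and replicate 1 was its highest library.

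The numbers of members passing hung on single libraries. Without CD11b-high replicate 1, 7 of 9 members passed, the added ones being Ccl2 (adjusted p = 0.0235), Ccl8 (0.000936), Ccl12 (0.00807) and Ccl24 (0.0181). Over all genes, 247 passed without that library, against 92 (0.693%) with it. Ccl8 and Ccl24 passed the filter through KO libraries of 12 weeks, where they are high. The library left out held the fewest counts of both in its group, 9 and 0, so their calls here are no independent support. Without CD11b-low replicate 2 or 3, 0 members passed, and over all genes 3 and 2 did. Without CD11b-high replicate 2 or 3, where 20 and 21 of all genes passed, the Ccl9 call was lost (adjusted p = 0.115 and 0.0786), and without CD11b-low replicate 1 the Ccl7 call was lost (0.0665).

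Taken as ratios of same-numbered libraries, CD11b-high over CD11b-low, replicate 2 was the extreme. Ccl7 had ratios of 5.48, 56.6 and 31.4 in replicates 1, 2 and 3, Ccl4 2.22, 23.0 and 13.3, Ccl2 1.44, 24.0 and 8.2, and Ccl12 1.54, 52.0 and 4.32. Ccl8 had ratios of 1.5, 268 and 9.93. Ccl9 had 2.3, 6.42 and 2.56 and Ccl3 1.31, 3.57 and 1.96, so their ratios spanned less than those of the monocyte chemoattractant genes. Ccl6 had 1.33, 1.66 and 0.922, a ratio below 1 in replicate 3. The only other library pair below 1 was replicate 1 of Ccl24, with 0 counts in the CD11b-high library and 1 in the CD11b-low library.

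**Figure D3:**
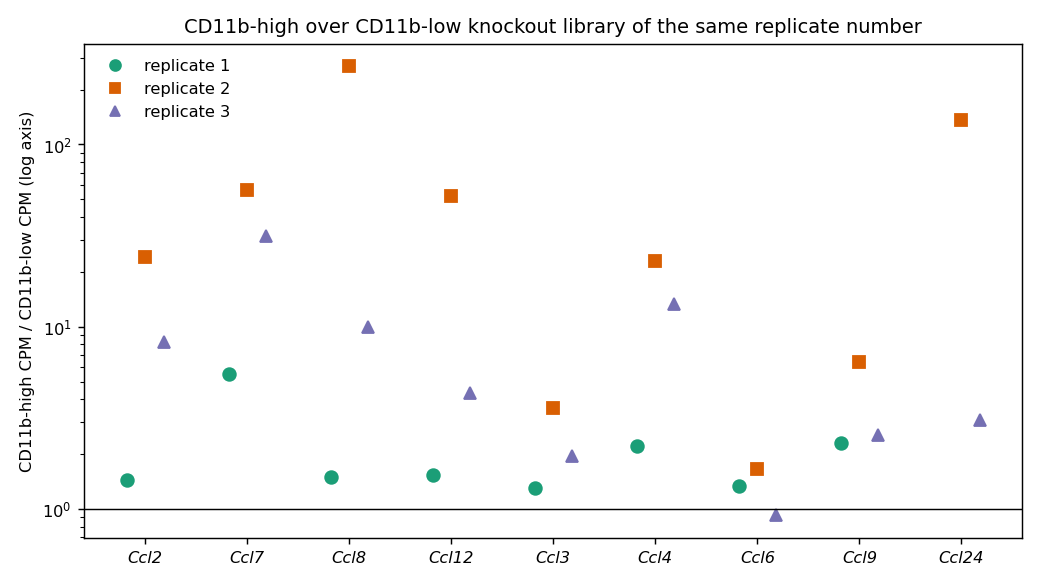
Ratio of CD11b-high to CD11b-low KO level (CPM over CPM, log axis) for libraries of the same replicate number, with 1 point per replicate and a line at 1. Ratios of replicate 2 reach 268 for Ccl8 and those of replicate 1 stay at 5.48 or below, and Ccl24 has no point for replicate 1, where the CD11b-high library had 0 counts.

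Itgam moved with these genes. In CD11b-high libraries it stood at 30.7, 88.4 and 61.5 CPM, in the same order of replicates as Ccl2, Ccl4, Ccl7, Ccl8, Ccl12 and Ccl24. Itgam encodes the CD11b used for the sort, so its difference between these groups was set by the gate. The 8 monocyte markers, which include Itgam and Ccr2, summed to 46.3, 180.0 and 103 CPM in CD11b-high libraries, against 11.3, 28.3 and 27.2 CPM in CD11b-low libraries. Itgam made up a large part of the CD11b-high sums, and of the 8, only Itgam passed. The 6 dendritic cell markers summed to 28, 159 and 69.6 CPM in CD11b-high libraries, against 3.36, 19 and 16.8 CPM in CD11b-low libraries, mostly from Ccr7 and Cd209a, and none passed. Neutrophil sums were 411 to 498 CPM in CD11b-high libraries, against 181 to 256 CPM in CD11b-low libraries, mostly S100a8, and S100a9 passed, with Ly6g at 0. Eosinophil markers summed to 1202, 334 and 431 CPM in CD11b-high libraries, against 683, 125 and 244 CPM in CD11b-low libraries, and none passed. Nearly all of the sum was Ear6, which was highest in replicate 1 and lowest in replicate 2 of both groups, unlike Ccl24. Of the scarcer eosinophil markers, Prg2 stood at 0, 8.72 and 0.465 CPM and Ccr3 at 0.122, 4.78 and 0.217 CPM in CD11b-high libraries, highest in replicate 2, with Epx at 0. The part of these cells in the chemokine levels was not tested.

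Set against CD11b-low WT cells of 12 weeks, CD11b-high KO cells had 8 of 9 members higher and 0 lower, where 14.8% of all genes passed (9.23% higher and 5.6% lower). Ccl8 and Ccl24 are among the 8. Both passed the filter through KO libraries of 12 weeks, where they are high, so the share over all genes is no measure for them. The median log2 fold change was 4.85 over the members and -0.01 over all genes. This contrast shares libraries with both of the other 12-week contrasts. The folds were 155 for Ccl7 (adjusted p = 0.00019), 73.5 for Ccl4 (4.25e-06), 28.8 for Ccl9 (9.59e-07), 11.4 for Ccl2 (0.019), 9.38 for Ccl3 (0.00107) and 6.4 for Ccl12 (0.0414). Ccl8 had 1452 counts over the CD11b-high libraries and 2 over the WT libraries, a pooled ratio of 726 (exact 95% interval 201 to 6003, counting error only, adjusted p = 0.00471). Ccl24 had 1600 counts in CD11b-high and 5 in WT libraries, a pooled ratio of 320.1 (137 to 987, adjusted p = 0.0342). Replicate 2 held 1192 of the CD11b-high counts of Ccl8 and 1392 of those of Ccl24. Without it the pooled ratios were 179 for Ccl8 and 57.2 for Ccl24, and without WT replicate 2 the ratio of Ccl24 was 957. The groups overlapped for Ccl12 and Ccl24, in CD11b-high replicate 1. Ccl6 averaged 25864 ± 7234 CPM in CD11b-high KO cells and 16476 ± 2803 CPM in WT cells, without overlap and with an adjusted p of 0.126.

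Calls for Ccl3, Ccl4, Ccl7, Ccl8 and Ccl9 in this contrast held without each of the 6 libraries in turn, with the log2 fold change of Ccl3 at 3.86 without WT replicate 3, against 3.23 with it. The Ccl2 call was lost without CD11b-high replicate 2 (adjusted p = 0.0687), WT replicate 1 (0.0796) or WT replicate 2 (0.0782). The Ccl24 call was lost without CD11b-high replicate 2 (0.0693) or any WT library (0.0974 to 0.106), and the Ccl12 call without CD11b-high replicate 2 or 3 (0.281 and 0.0668) or any WT library (0.0712 to 0.13). Of other cells' markers, 6 of 8 monocyte, 6 of 10 tested T and NK cell and 4 of 6 tested neutrophil markers were higher. So were 3 of 3 tested eosinophil, 2 of 6 dendritic cell and 1 of 6 B cell markers. Lower were 4 of 5 erythroid and 2 of 6 lung epithelial markers. The part of all these cells was not tested. The monocyte markers include Itgam, whose rise was set by the CD11b gate.

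**Figure D4:**
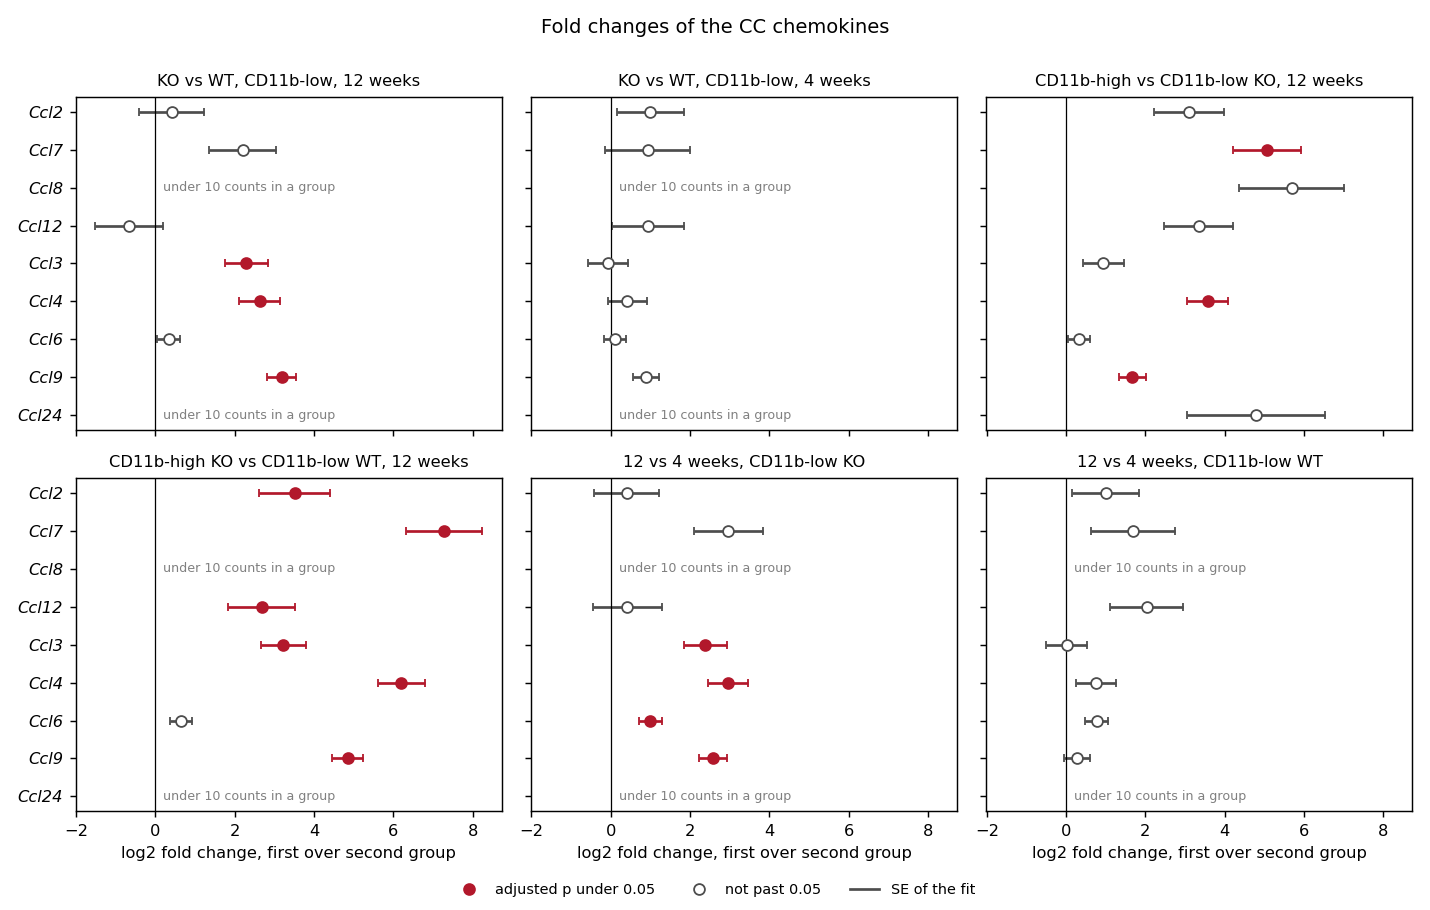
Log2 fold changes (first over second group of each title, bars are the SE of the fit) of the 9 CC chemokines in 6 comparisons, with filled points for an adjusted p under 0.05 and no point where a group had under 10 counts. Filled points number 3, 0 and 3 in the upper row, and all lie above 0.

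Across all 15 libraries, levels of Ccl2, Ccl4, Ccl7, Ccl8, Ccl12 and Ccl24 ran together, with Pearson r of log2(CPM + 1) of 0.8 to 0.99 over their 15 pairs. The pairs of Ccl8 with Ccl24 (0.99), of Ccl4 with Ccl7 (0.98) and of Ccl8 with Ccl12 (0.94) were among them. Ccl6 ran least with the others, with r of 0.39 to 0.81 over 8 pairs. These are descriptions over libraries that fall into 5 groups and share the differences between them, so no p is given. Among other genes with at least 10 CPM, Ccl9 was most like Fstl1 (r = 0.99), Zranb3 (0.98) and Mreg (0.98), and Ccl7 most like Itgam (0.97), Thbs1 (0.97) and AA467197 (0.95). Ccl4 was most like AA467197, Cxcl16 and Itgam (each 0.96), Ccl3 like Cxcl3 (0.96), Slc37a2 (0.93) and Wfdc17 (0.93), Ccl2 like Thbs1 (0.86), Srgn (0.86) and AA467197 (0.85), and Ccl6 like Glipr1, Id2 and Tmem251 (each 0.97).

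Of 15 receptor genes, 8 were tested, and 1, 0, 0, 2, 1 and 0 were higher in KO over WT cells at 12 weeks, KO over WT cells at 4 weeks, CD11b-high over CD11b-low KO cells, CD11b-high KO over WT cells, 12 over 4 weeks in KO and 12 over 4 weeks in WT, with 0 lower in each. Over all genes, 2.6, 0.0151, 0.572, 9.23, 4.81 and 8.79% were higher in the same order. With 8 genes tested, the counts are too small to be compared with these shares. Ccr1, which binds Ccl3, Ccl6 and Ccl9, was at 361 ± 95 CPM in CD11b-high KO cells, 321 ± 185 CPM in CD11b-low KO cells and 262 ± 172 CPM in WT cells at 12 weeks, and did not pass (adjusted p = 0.954 for CD11b-high against CD11b-low KO cells and 0.743 for KO against WT cells). Ccr2 is given as the receptor of 3 members, outside the rule for named genes. Ccr2, which binds Ccl2, Ccl7 and Ccl12, stood at 7.13, 42.2 and 11.1 CPM in CD11b-high KO libraries, against 5.64, 19.2 and 14.5 CPM in CD11b-low KO libraries (adjusted p = 0.795). Ccr2 was highest in replicate 2 of the CD11b-high group.

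Ccr7, a receptor for homing chemokines, was 17.7-fold higher in CD11b-high KO than in WT cells (64.2 ± 54.5 and 3.6 ± 2.83 CPM, adjusted p = 0.014). The 6 dendritic cell markers include Ccr7, and the part of such cells in this difference was not tested. Ccr8, named after its values were seen, had 23, 40 and 19 counts in CD11b-low KO libraries of 12 weeks, against 0, 0 and 1 count in WT libraries (adjusted p = 0.0158). It had 8, 35 and 15 counts in CD11b-high KO libraries (adjusted p = 0.00542 against WT). In KO libraries of 4 weeks it had 0 counts (adjusted p = 0.0035 for 12 against 4 weeks). Ccr8 passed the filter through KO libraries of 12 weeks, where it is high, so these p-values are no independent support.

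Of 13 other CC ligand symbols (18 genes), 5 genes were tested. Over all genes, 2.6% were higher in KO over WT cells at 12 weeks and 0.0151% at 4 weeks. The shares were 9.23% in CD11b-high KO over WT cells and 0.572% in CD11b-high over CD11b-low KO cells. Between 12 and 4 weeks they were 4.81% in KO cells and 8.79% in WT cells. In KO over WT cells at 12 weeks 1 was higher, Ccl17, a Ccr4 ligand, at 43.9 ± 12.6 CPM in KO cells and 9.69 ± 5.8 CPM in WT cells (4.52-fold, adjusted p = 0.0481). In CD11b-high KO over WT cells 3 were higher, Ccl17 (11.3-fold, adjusted p = 0.00101), the other Ccr4 ligand Ccl22 (8.54-fold, 0.000173) and Ccl5, a Ccr1 ligand (3.79-fold, 0.00607). Between 12 and 4 weeks, Ccl5, Ccl17 and Ccl22 were higher in KO cells (10.6-fold, 10.3-fold and 2.86-fold, adjusted p = 0.000339, 0.00366 and 0.0393), and Ccl5, Ccl17 and Ccl27a in WT cells (5.96-fold, 4.69-fold and 2.68-fold, adjusted p = 0.00368, 0.017 and 0.0326). Reads of Ccl27a may be split with near-identical copies. None passed in CD11b-high over CD11b-low KO cells, where Ccl22 averaged 133 ± 92.3 and 44.4 ± 14.7 CPM (adjusted p = 0.107), or at 4 weeks. Between 12 and 4 weeks, 8 of 10 tested T and NK cell and 1 of 6 dendritic cell markers were also higher in KO cells. In WT cells 2 of 10 and 1 of 6 were. The part of these cells in the ligand levels was not tested.

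Genes that control chemokine transcription or mRNA decay are set beside the chemokines here. Of 12 tested, among them the NF-kappaB subunits, Nfkbia and the mRNA decay factors Zfp36 and Zc3h12a, none passed between KO and WT cells at 12 weeks, where Zfp36 averaged 364 ± 189.5 CPM in KO cells and 493 ± 475 CPM in WT cells (adjusted p = 0.769). None passed at 4 weeks, between CD11b-high and CD11b-low KO cells or between the ages in KO. Over all genes, 3.1, 0.0979, 0.693 and 6.89% passed in these comparisons in the order named. In CD11b-high KO over WT cells 2 were higher, Atf3 (59.3 ± 23.2 and 21.2 ± 7.64 CPM, adjusted p = 0.0386) and the NF-kappaB subunit gene Rel (6.47 ± 2.22 and 2.83 ± 0.092 CPM, adjusted p = 0.0236). There 9.23% of all genes were higher. In WT cells Stat6, which carries interleukin signals to promoters, was lower at 12 weeks, at 111 ± 30 CPM, against 265 ± 15.6 CPM at 4 weeks (adjusted p = 0.00766). There 8.39% of all genes were lower.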

How the data were processed

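The authors deposited raw counts per gene, 1 column per library, for 15 libraries in 5 groups of 3. Per the submitters' processing notes, STAR, Subread and featureCounts were used, and versions, strand setting and genome build are not given in the sources used here. Per the labels, RNA was made into libraries with SMARTer kits. Among 40780 rows, 160 genes came up more than once with the same counts, so 270 extra rows were dropped. Rows without a gene name numbered 0.

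Tests used edgeR 4.0.16 under R 4.3.3. Its filterByExpr (minimum count 10, minimum total 15) left 13284 genes with at least 99.9% of the counts of each library, TMM factors scaled the totals, and a robust quasi-likelihood fit had 1 coefficient per group and 10 residual degrees of freedom. Tests were two-sided, adjusted by Benjamini and Hochberg over all genes at 0.05, and the code was tested on simulated data. All 9 members passed the filter. Ccl8 and Ccl24 did so through KO libraries of 12 weeks, as neither had over 4 counts in any WT or 4-week library. The members and gene lists were chosen with earlier results of these data known. Alternatives were DESeq2 1.42.0, limma 3.58.1 voom, size factors (RLE), no filter, the compared groups alone, the replicate number as a block, and leaving out each library.

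Deviations from the group means correlated at 0.4, 0.33 and 0.11 between same-numbered CD11b-high and CD11b-low KO libraries, each the best match of its number. KO and WT libraries of replicate 1 at 12 weeks, from different mice, correlated at 0.34. The labels do not say whether a number marks shared mice, and these correlations cannot show it. Members were named in every comparison. Of each gene list, up to 4 genes past the threshold with at least 1 CPM were named by size of change, or 2 by level where none passed, and Ccr2 and Ccr8 were added outside this rule. Likeness used log2(CPM + 1) with a minimum mean of 10 CPM. Intervals are exact 95% intervals of counting error, and the floor is 3 counts over a group. No 2 libraries of a group agreed within counting noise.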

Additional observations from a re-analysis of the deposited data

How the results depend on the processing

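Ccl9 kept its call under every alternative and every left-out library for KO against WT cells at 12 weeks, for CD11b-high KO against WT cells and for 12 against 4 weeks in KO cells. Over all members, comparisons and alternatives, 624 values kept direction and side of the threshold, 45 lost a call, 36 gained one and 14, none of them called, changed sign. The causes were not tested. Counts of the 9 members past the threshold changed by over 1.5 times as follows. Without a filter on low counts they were 6 for KO against WT at 12 weeks (3 in the reported fit), 7 for CD11b-high against CD11b-low KO (3), 7 for 12 against 4 weeks in KO (4), 3 for 12 against 4 weeks in WT (0) and 3 for the interaction (0). DESeq2 gave 6 for CD11b-high against CD11b-low KO, 2 for the ages in WT and 1 for the interaction. Limma voom gave 5 for CD11b-high KO against WT (8). With only the compared groups in the fit they were 0 for CD11b-high against CD11b-low KO, 5 for CD11b-high KO against WT and 1 for the interaction. Leaving out 1 library at a time gave 1 to 3 for KO against WT at 12 weeks, 0 to 7 for CD11b-high against CD11b-low KO, 5 to 8 for CD11b-high KO against WT, 2 to 4 for the ages in KO, 0 for the ages in WT, 0 to 1 for the interaction and 0 at 4 weeks.

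The sign changes were all of log2 fold changes that did not pass the test. Ccl3 at 4 weeks was 0.06 with limma voom, 0.06 with the replicate block and -0.48 to 0.26 with 1 library left out. Ccl7 was -0.68 to 1.60 and Ccl2 -0.18 to 1.42 at 4 weeks with 1 library left out. For the ages in KO, Ccl12 was -0.66 to 0.79 and Ccl2 -0.02 to 1.58. For the ages in WT, Ccl3 was -0.06 with the replicate block and -0.62 to 0.37 with 1 library left out, and Ccl9 was -0.03 to 0.44. The interaction of Ccl2 was -1.01 to 0.59.

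With the replicate number as a block, 3, 0, 3, 7, 3, 0 and 0 members passed in KO against WT of 12 weeks, the same of 4 weeks, CD11b-high against CD11b-low KO, CD11b-high KO against WT, the ages in KO, the ages in WT and the interaction. Only between CD11b-high and CD11b-low KO libraries was the same number the best match of deviations in every replicate, and there the block changed no call. In other comparisons, Ccl12 (2.10, adjusted p = 0.187) in CD11b-high KO against WT and Ccl6 (0.96, adjusted p = 0.0784) for the ages in KO did not pass with the block.

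Over all genes, KO against WT at 12 weeks called 412, against 1090 without a filter, 880 with DESeq2, 189 with the compared groups alone and 1019 with the block. At 4 weeks it called 13, against 73, 24 and 4 for the first 3 of these. CD11b-high against CD11b-low KO called 92, against 533, 261 and 18, and 148 with limma voom. CD11b-high KO against WT called 1970, against 793 with the compared groups alone. The ages in KO called 915, against 1395, 1698 and 1646, and 549 with the block. The ages in WT called 2282, against 1123 with the compared groups alone, and the interaction 33, against 321 without a filter, 151 with DESeq2 and 6 with limma voom. With 1 library left out, calls over all genes ranged over 230 to 426, 4 to 15, 2 to 247, 952 to 2099, 235 to 1305, 1069 to 2528 and 3 to 35 in the same order of comparisons. Few counts limit Ccl8 and Ccl24 outside the CD11b-high group.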
